A study of Mus musculus with 2 samples.

Results

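The mouse mitochondrial genome is a small circular chromosome with 37 annotated genes, and the RNA of these genes is described here in common myeloid progenitors. All 37 genes on the mitochondrial chromosome were taken, which carry symbols beginning with mt-, out of 43346 Ensembl genes in the deposited gene tables. They comprise 13 protein-coding genes of the respiratory chain, 2 ribosomal RNAs and 22 tRNAs. Each protein-coding gene model is called an mRNA here, also where genes are carried on a shared transcript. The genes were chosen by their chromosome and not by their level.

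Common myeloid progenitors are bone marrow cells from which the granulocyte, monocyte, platelet and red cell lineages descend. Total RNA was sequenced from primary cells of adult male mice of strain C57BL/6J, 5 to 6 weeks of age, with no treatment named in the labels. There were 2 libraries of 1 group, labelled as biological replicates 1 and 2. Each was made by ScriptSeq chemistry with an RNA input of 100 ng after removal of ribosomal RNA. The donor label is shared, and whether separate animals were used is not stated, so any spread given here is that of these samples and can include technical variation. The labelled size range was 200 to 1000 in replicate 1 and 187 to 1606 in replicate 2, with no unit given. Total expected counts, the estimated reads per gene summed over all Ensembl genes, were 28158803 in replicate 1 and 84041054 in replicate 2, a difference in depth of 2.98 times. With 1 group there was no contrast between conditions and no test, and values are given for each library or as mean ± SD over both (n = 2).

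The labelled cell type was checked against marker genes. TPM is the count divided by the effective length of the gene model and scaled to a common total. All 5 progenitor markers were present in both libraries, with 20.97 and 24.93 TPM for the lowest, the receptor gene Flt3, in replicates 1 and 2. Mpo, the myeloperoxidase of early granulocytic cells, had 314 and 399 TPM in replicates 1 and 2, and Cd34, a surface sialomucin of progenitors, had 125 and 121 TPM. Of the 4 B cell and 3 T cell markers none exceeded 0.07 TPM in either library. Of 3 stromal markers Cdh5 and Col1a1 were at 0 TPM in both, and Pecam1, a surface protein that blood progenitors also carry, had 8.76 and 12.6 TPM. Ly6a and Il7r, listed as low on these cells, had 0.69 and 0.73 TPM and 0.96 and 0.13 TPM. The red cell markers Alas2 and Slc4a1 and the macrophage markers Adgre1 and C1qa did not exceed 0.61 TPM in either library. Whether the markers set these cells apart from other myeloid progenitors was not tested.

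Mitochondrial DNA is transcribed along almost its whole length from both strands. The long primary transcripts are cut mainly at the tRNAs that lie between the other genes, which releases mRNAs and ribosomal RNAs. The mRNAs encode membrane subunits of complexes I, III, IV and V, to which many nuclear genes contribute the remaining subunits. Of the 13 mRNAs 12 are read from the heavy strand as template and lie on the plus strand of the assembly, and mt-Nd6 is the single mRNA on the other strand. Of the tRNAs 14 lie on the plus strand and 8 on the minus strand.

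The counts of 5 mitochondrial mRNAs were divided with nuclear gene models of the same sequence, and the sequences that set the pairs apart are shown first because the levels below turn on them. A nuclear block on chromosome 1, on the minus strand of GRCm38, holds pseudogene models that follow the order of the mitochondrial genome from the end of mt-Co1 to the start of mt-Nd4. Gm28661 (chr1:24614885-24615565) is identical to mt-Co2 over all 681 bases of the copy. Gm10925 (chr1:24613974-24614651) is identical to mt-Atp6 over 678 bases, Gm28437 (chr1:24613189-24613971) to mt-Co3 over 783 bases and Gm10222 (chr1:24612407-24612700) to mt-Nd4l over 294 bases. In these 4 pairs the models differed in nothing but the last bases of the mitochondrial gene, which the copy's model does not include. The last 30 bases of each gene on the plus strand of the mitochondrial chromosome are given 5′ to 3′ as annotated by GENCODE M21, with the bases beyond the copy in capitals.
mt-Co2, chrM:7667-7696: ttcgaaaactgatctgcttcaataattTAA
mt-Atp6, chrM:8578-8607: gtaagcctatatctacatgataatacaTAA
mt-Co3, chrM:9361-9390: tatacgtctccatttattgatgaggatctT
mt-Nd4l, chrM:10144-10173: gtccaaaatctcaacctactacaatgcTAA
The capitals are 3 bases in mt-Co2, mt-Atp6 and mt-Nd4l and 1 base in mt-Co3, whose model ends inside a stop codon. Stop codons of this kind are completed by the poly(A) tail in mammalian mitochondria. Of the 13 mRNA models 3 have a length that is not a multiple of 3, those of mt-Co3, mt-Nd4 and mt-Cytb.

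The fifth pair, mt-Nd3 and Gm28438 (chr1:24612775-24613119), differed at 1 of 345 aligned bases. The model of mt-Nd3, at 348 bases, also runs beyond the end of the copy's model. Positions are counted from 1 at the 5′ end of the mitochondrial gene, and the substitution is T3C, in capitals in the first 30 bases of each model.
mt-Nd3, chrM:9459-9488, plus strand: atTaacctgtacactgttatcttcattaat
Gm28438, chr1:24613090-24613119, minus strand: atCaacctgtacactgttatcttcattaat
Copies with at least 90% identity over at least 100 bases were found as 17 annotated nuclear genes, of which 15 had rows in the deposited tables. These 15 were copies of 11 of the 37 genes. Among the 15 there was no copy of mt-Nd1, mt-Atp8, the 2 ribosomal RNAs or the tRNAs.

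How the deposited counts were divided within these pairs differed between the libraries. mt-Co2 had 2254 expected counts in replicate 1 and 22159 in replicate 2, while Gm28661 had 64611 and 138768. The mitochondrial gene was thus given 3.37% of the pair's counts in replicate 1 and 13.8% in replicate 2. The division also differed between the 2 estimates in the same deposited table, since by posterior mean counts mt-Co2 held 31.4% and 37.9% of the pair. The deposited posterior SD of that count was 13058 in replicate 1 and 26099 in replicate 2, for mt-Co2 and for Gm28661 alike, and the pair summed to 66865 counts in replicate 1 and to 160927 in replicate 2 by both estimates.

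The other pairs showed the same kind of division. mt-Atp6 held 2.06% and 3.78% of the expected counts of its pair in replicates 1 and 2, and 21.4% and 19.9% of posterior mean counts. mt-Co3 held 11.6% and 25.1% of expected counts, and 37.5% and 37.5% of posterior mean counts. The direction was the reverse in the 2 short complex I genes, with 38.0% in replicate 1 and 19.4% in replicate 2 of expected counts for mt-Nd3, and 49.98% and 7.22% for mt-Nd4l. The estimates lay close together for these 2 genes, at 39.0% and 19.4% of posterior mean counts for mt-Nd3 and 54.5% and 8.15% for mt-Nd4l.

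Longer models with a copy of part of the gene were hardly divided. mt-Nd4 shares 876 of its 1378 bases with Gm28439 (chr1:24611535-24612410), to which 5.52 counts were assigned in replicate 1 and 71.2 in replicate 2, against 34168 and 115929 for mt-Nd4. mt-Co1 matches Gm29216 (chr1:24615706-24616197) over 483 bases with the substitution A1066T, and Gm29216 was given 11.3 and 94.5 counts, against 343579 and 939694 for mt-Co1. The remaining copies, on chromosomes 2, 4, 11 and 13, held at most 68.4 counts each. Whether the counts of the 5 divided pairs came from mitochondrial or nuclear RNA cannot be told apart in these tables, and each level below is therefore given for the gene alone and for the gene summed with its copies.

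**Figure D1:**
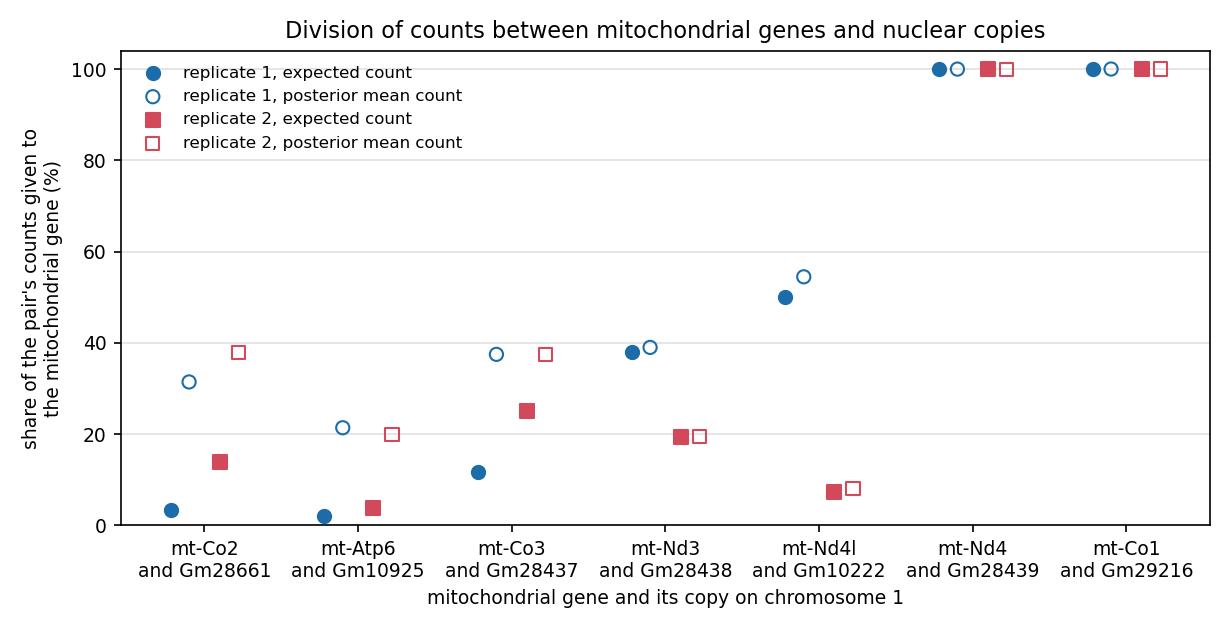
Share of the expected counts (filled) and posterior mean counts (open) of each pair, in percent, that was assigned to the mitochondrial gene in replicate 1 (circles) and replicate 2 (squares). The 5 pairs on the left lie between 2.06% and 54.5%, and mt-Nd4 and mt-Co1 lie close to 100%.

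The deposited interval bounds of TPM were wide for the same 5 genes. The upper bound was 25.9 and 14.1 times the lower in replicates 1 and 2 for mt-Atp6, 9.91 and 5.90 times for mt-Co3 and 6.55 and 3.99 times for mt-Co2. It was 1.73 and 1.45 times for mt-Nd3 and 1.98 and 2.54 times for mt-Nd4l. For the other 10 measured genes it was at most 1.15 times. The intervals need not hold the deposited TPM. mt-Co2, with 63.0 and 236 TPM, lay below its lower bounds of 188 and 279 in replicates 1 and 2. mt-Atp6, with 34.4 and 60.8 TPM, lay below its lower bounds of 39.1 and 61.1. Their posterior mean TPM, 577 and 644 for mt-Co2 and 352 and 318 for mt-Atp6, lay inside. Others lay slightly above the upper bound, such as mt-Nd1 in replicate 1 with 685 against 681.

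Mitochondrial genes gave 2.76% of all expected counts in replicate 1 and 3.28% in replicate 2. The 13 mRNAs gave 1.84% and 1.82%, a mean of 1.83% ± 0.0115, and with their nuclear copies 2.57% and 2.38%. The 2 ribosomal RNAs gave 0.925% and 1.46%. The share of mRNAs alone thus differed little between the libraries, and with copies it was lower in replicate 2. That of ribosomal RNAs was higher in replicate 2. Wilson 95% intervals of these shares reach at most 0.00678 percentage points to either side, which covers counting error only. In bulk samples fewer cells of a type and less RNA per cell cannot be told apart.

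Of the 37 genes 15 were measured, the 13 mRNAs and 2 ribosomal RNAs, and all 15 exceeded 1 TPM in both libraries. By comparison 9116 of 21461 nuclear protein-coding genes reached 1 TPM in both. mt-Co1 ranked 2 among all genes by expected count in replicate 1 and 3 in replicate 2, with no nuclear protein-coding gene above it. By TPM, Eef1a1, the elongation factor that brings tRNA to the cytosolic ribosome, was the highest nuclear protein-coding gene with 3405 and 3107 TPM, beside 3388 and 3593 TPM for mt-Co1.

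The ribosomal RNAs form the core of the mitochondrial ribosome and were measured after depletion. mt-Rnr2, the large-subunit RNA (chrM:1094-2675), had 2287 and 4074 TPM in replicates 1 and 2. mt-Rnr1, the small-subunit RNA (chrM:70-1024), had 389 and 918 TPM. Both were higher in replicate 2, and mt-Rnr2 exceeded mt-Rnr1 6.56-fold in replicate 1 and 4.91-fold in replicate 2 by counts per kilobase of annotated length. Ribosomal RNA counts were 0.504 times the mRNA counts in replicate 1 and 0.804 times in replicate 2. How completely depletion removed each of the 2 RNAs was not tested, so these ratios describe the libraries.

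The 22 tRNAs, which carry amino acids to the mitochondrial ribosome and mark most cleavage sites of the primary transcripts, were listed at 0 expected counts in both libraries. Their models are 59 to 75 nucleotides long and all 22 had an effective length of 0 in both tables, and their TPM was listed at 0. The shortest model with an effective length above 0 was 110 nucleotides in replicate 1 and 105 in replicate 2. Counts were nevertheless assigned to 8 and 10 gene models under 100 nucleotides, none of them mitochondrial. The 0 is given as listed, and no upper limit on the level of the tRNAs is drawn from it.

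Complex I, the NADH dehydrogenase that feeds electrons into the chain, takes 7 mitochondrial subunits, all in its membrane arm. mt-Nd1 (chrM:2751-3707), at the junction of the membrane and matrix arms, had 685 and 858 TPM in replicates 1 and 2. The 3 antiporter-like subunits stood lower, with 266 and 345 TPM for mt-Nd2 (chrM:3914-4951), 385 and 506 TPM for mt-Nd4 (chrM:10167-11544), and 159 and 239 TPM for mt-Nd5 (chrM:11742-13565). The 2 libraries of these genes did not overlap with those of mt-Nd1, nor those of mt-Nd5 with those of mt-Nd2. mt-Nd3 (chrM:9459-9806) had 632 and 262 TPM alone and 1684 and 1369 TPM summed with its copy. mt-Nd4l (chrM:9877-10173) had 290 and 39.1 TPM alone and 589 and 555 TPM summed. For these 2 genes the libraries lay far apart on the deposited scale and near each other after summing.

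Complex III, which passes electrons from ubiquinol to cytochrome c, takes a single mitochondrial subunit. This is cytochrome b, and mt-Cytb (chrM:14145-15288) had 424 and 539 TPM in replicates 1 and 2, a range that overlapped with that of mt-Nd4.

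Complex IV, the cytochrome c oxidase, takes 3 mitochondrial subunits that form its core. mt-Co1 (chrM:5328-6872), which carries the haem and copper site where oxygen is reduced, had 3388 and 3593 TPM in replicates 1 and 2. mt-Co2 (chrM:7013-7696), which takes up electrons from cytochrome c, had 63.0 and 236 TPM alone and 1881 and 1723 TPM summed with its copies. mt-Co3 (chrM:8607-9390), the third core subunit, had 214 and 426 TPM alone and 1845 and 1699 TPM summed. mt-Co1 exceeded both in each library on either scale, and the summed levels of mt-Co2 and mt-Co3 overlapped. Of the mRNA counts mt-Co1 held 66.5% in replicate 1 and 61.4% in replicate 2, and 47.5% and 47.0% when copies were included.

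Complex V, the ATP synthase, takes 2 mitochondrial subunits of its membrane part. mt-Atp6 (chrM:7927-8607), the subunit that forms the proton path beside the rotor ring, had 34.4 and 60.8 TPM alone and 1682 and 1616 TPM summed with its copy. mt-Atp8 (chrM:7766-7969), a small stator subunit, had 6229 and 4823 TPM, the highest of the mitochondrial genes in both libraries. Its TPM rests on an effective length of 12.5% of the model in replicate 1 and 15.4% in replicate 2, while that of mt-Nd5 is 88.2% and 88.9%. By summed CPM (counts scaled to the library's sum) per kilobase of annotated length, mt-Atp8 stood at 2115 and 1719, below mt-Atp6 at 3099 and 2619.

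The 2 genes of complex V overlap on the same strand by 43 bases and are carried on a shared mRNA in mammals. The counts of mt-Atp8 were whole and equal by both estimates, at 12150 in replicate 1 and 29479 in replicate 2. The overlap is shown because its bases belong to both models, with the start codon of mt-Atp6 in capitals on the plus strand, 5′ to 3′.
mt-Atp8 and mt-Atp6, chrM:7927-7969: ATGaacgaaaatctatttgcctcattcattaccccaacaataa
Of the 37 genes 9 pairs overlap, 4 of them pairs of mRNAs. The other 3 mRNA overlaps are 7 bases between mt-Nd4l and mt-Nd4, 1 base between mt-Atp6 and mt-Co3 and 14 bases between mt-Nd5 and mt-Nd6 on opposite strands.

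mt-Nd6 (chrM:13552-14070, minus strand), a membrane subunit of complex I, was the lowest mitochondrial mRNA in replicate 1 and the second lowest in replicate 2 by deposited TPM. It had 32.4 and 47.0 TPM in replicates 1 and 2, against a median of 338 and 386 TPM over the 12 heavy-strand mRNAs. On that scale it stood at 9.59% and 12.2% of the heavy-strand median. With copies summed the heavy-strand median was 1184 and 1113 TPM, 36.5 and 23.7 times the level of mt-Nd6, and mt-Nd6 was then the lowest in both libraries. Whether the counting used the strand of the reads is not given in the sources used here, so that reads of the opposite strand cannot be told apart from those of mt-Nd6.

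Base composition, counted on each gene's own strand, also differed between mt-Nd6 and the heavy-strand mRNAs. Guanine made up 28.1% of its bases and cytosine 5.97%. The heavy-strand mRNAs held 5.88% guanine (mt-Atp8) to 16.1% (mt-Co1) and 22.1% cytosine (mt-Nd3) to 29.97% (mt-Nd4l). Counted on the plus strand, the stretch of mt-Nd6 holds 5.97% guanine and 28.1% cytosine, inside these ranges. The difference thus goes with the strand on which the bases are counted. Their GC content ranged from 31.9% in mt-Atp8 to 41.1% in mt-Nd4l, with 34.1% in mt-Nd6.

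By summed TPM the mRNAs fell in the order mt-Atp8, mt-Co1, mt-Co2, mt-Co3, mt-Atp6, mt-Nd3, mt-Nd1, mt-Nd4l, mt-Cytb, mt-Nd4, mt-Nd2, mt-Nd5 and mt-Nd6. Of the 12 pairs of neighbours in that order 3 had overlapping libraries, mt-Co2 with mt-Co3, mt-Atp6 with mt-Nd3 and mt-Cytb with mt-Nd4. By deposited TPM 7 of the 12 pairs of neighbours overlapped. Spearman's rho between the libraries was 0.813 for deposited and 0.995 for summed TPM over 13 mRNAs, which share their gene models and effective-length corrections.

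**Figure D2:**
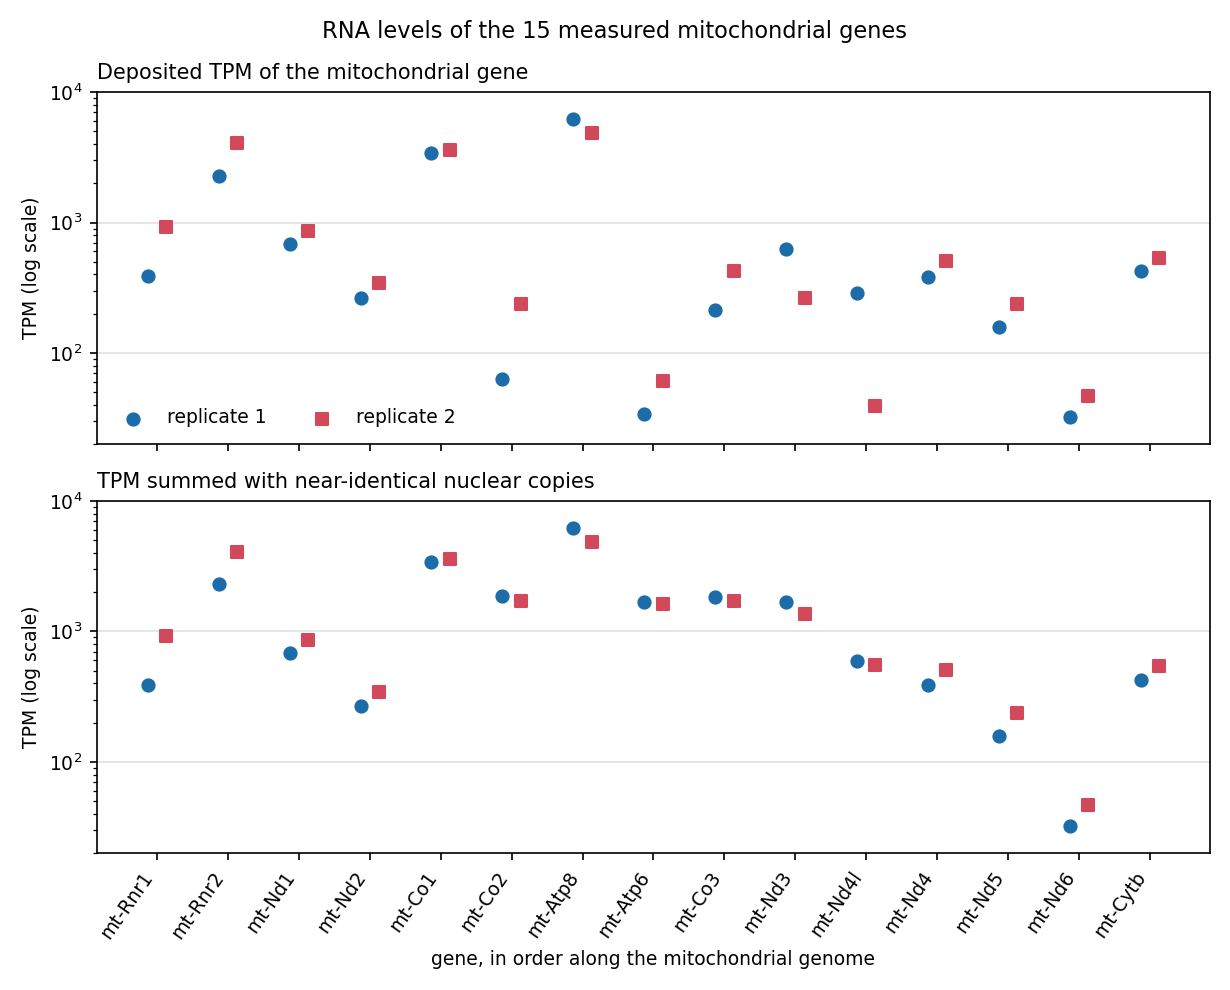
TPM on a log scale of the 15 measured mitochondrial genes, in order along the genome, in replicate 1 (circles) and replicate 2 (squares), for the gene alone (top) and summed with near-identical nuclear copies (bottom). mt-Co2, mt-Atp6, mt-Co3, mt-Nd3 and mt-Nd4l move up in the lower panel, to between 555 and 1881 TPM.

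CPM per kilobase of annotated length gave another order at the top. On that scale, with copies summed, mt-Co1 led with 7898 and 7238 in replicates 1 and 2, followed by mt-Co3 with 3622 and 2919, mt-Co2 with 3472 and 2800 and mt-Atp6 with 3099 and 2619. These 3 genes overlapped from one to the next, and mt-Co1 lay above all others. mt-Nd6 was lowest with 51.5 and 66.5. The next lowest were mt-Nd5 with 379 and 493 and mt-Nd4l with 481 and 429, which overlapped. The highest heavy-strand mRNA exceeded the lowest 20.8-fold in replicate 1 and 16.9-fold in replicate 2. Over the 12 heavy-strand mRNAs this level had a Spearman's rho of −0.44 with the position of the gene's start, 0.12 with GC content and −0.19 with model length, as descriptions of genes that share libraries and primary transcripts.

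How complex IV compared with complex I depended on the treatment of the copies. The median deposited TPM of the 3 complex IV mRNAs was 214 in replicate 1 and 426 in replicate 2, against 338 and 304 for the 6 heavy-strand complex I mRNAs. The log2 ratio of the medians was −0.66 in replicate 1 and 0.49 in replicate 2, so that the libraries lay on opposite sides of equality. With copies summed the medians were 1881 and 1723 TPM for complex IV, against 487 and 531 TPM for complex I, log2 ratios of 1.95 and 1.70.

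Differences between the libraries were expressed as log2 CPM ratios of replicate 2 over replicate 1 after TMM scaling. Of the 15 measured genes 4 differed by at least 2-fold, against 20.9% of all 15115 genes with a mean count of at least 10. Among the 6298 genes with a mean count at least that of the lowest measured mitochondrial gene the share was 0.508%. The 4 genes were mt-Co2 at 1.72, mt-Rnr1 at 1.04, mt-Nd3 at −1.37 and mt-Nd4l at −2.95. With copies summed mt-Co2 stood at −0.31, mt-Nd3 at −0.41 and mt-Nd4l at −0.16. mt-Rnr1, which had no copy in the deposited tables, was then the single gene past 2-fold. mt-Rnr2 stood at 0.63, mt-Atp6 at 0.64 alone and −0.24 summed, and mt-Co3 at 0.81 alone and −0.31 summed.

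The remaining 8 mRNAs, with no copy in the deposited tables or with copies that took few counts, lay between −0.30 for mt-Atp8 and 0.38 for mt-Nd5. The median over the 13 mRNAs was 0.17 for deposited counts and −0.12 with copies summed, opposite in sign, beside a median of 0.04 over all genes with a mean count of at least 10. With copies summed every mRNA lay within the central 95% of the 6298 genes of like or higher count, which ran from −0.51 to 0.61. mt-Rnr1 and mt-Rnr2 lay above it.

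**Figure D3:**
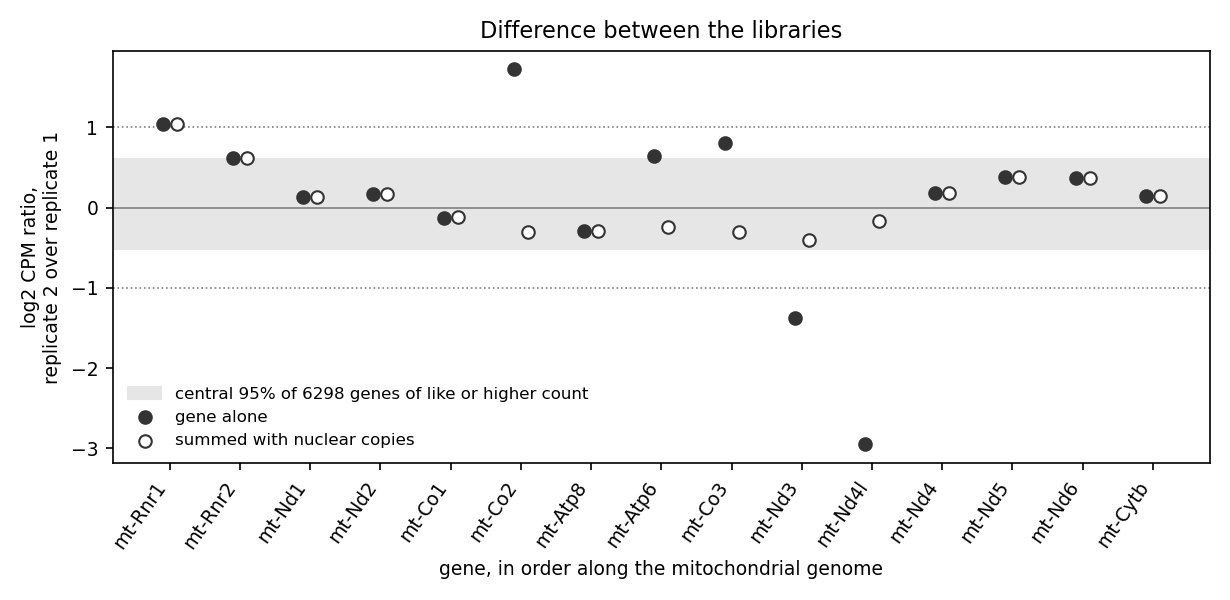
Log2 CPM ratio of replicate 2 over replicate 1 for the 15 measured mitochondrial genes, alone (filled) and summed with near-identical nuclear copies (open). The grey band is the central 95% of 6298 genes of like or higher count, and dotted lines mark 2-fold. mt-Co2, mt-Atp6, mt-Co3, mt-Nd3 and mt-Nd4l lie outside the band alone and inside it when summed, and mt-Rnr1 and mt-Rnr2 lie above it.

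Set beside the listed nuclear genes of the same complexes, the mitochondrial mRNAs summed with copies were higher in all but mt-Nd6. The nuclear genes were taken alone, and copies of them were not searched for, so the comparison treats its sides unlike. Some nuclear counts were not whole numbers, such as 4491.84 for Cox6c in replicate 1. Whether they were divided with other models was not tested. The mitochondrial complex IV mRNAs summed with copies had 1699 to 3595 TPM in the 2 libraries, while the highest of 10 nuclear complex IV genes, Cox6c, had 189 and 158 TPM. For complex III mt-Cytb had 424 and 539 TPM, against 209 and 208 TPM for Uqcrb, the highest of 9 nuclear genes. For complex V the highest of 15 nuclear genes was Atp5b, the catalytic beta subunit, with 506 and 502 TPM, below the summed level of mt-Atp6 and the level of mt-Atp8. For complex I the nuclear core genes had medians of 25.9 and 33.7 TPM over 7 genes. mt-Nd6, with 32.4 and 47.0 TPM, fell inside the range of the nuclear complex I core. Without its copy mt-Atp6 had a lower TPM than 10 of the 15 nuclear complex V genes in replicate 1 and than 6 in replicate 2.

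**Figure D4:**
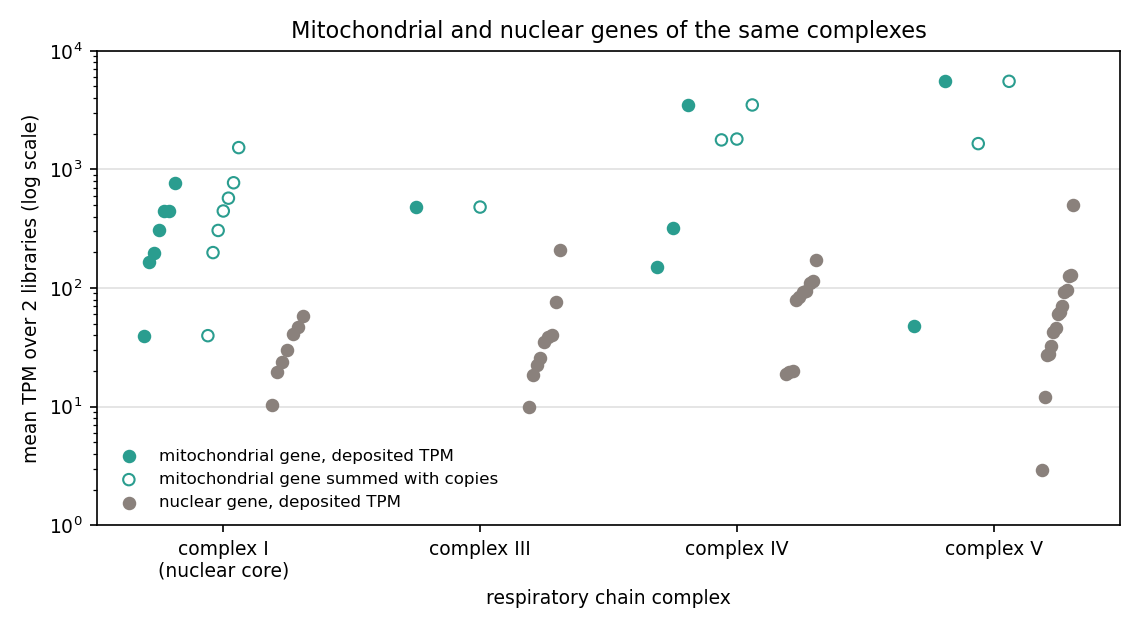
Mean TPM over 2 libraries, on a log scale, of mitochondrial genes alone (filled, left), mitochondrial genes summed with near-identical nuclear copies (open, middle) and nuclear genes (grey, right) of complexes I, III, IV and V. For complex I the nuclear genes are the 7 core subunits. Nuclear genes are shown alone, and copies of them were not searched for. The summed mitochondrial genes lie above every nuclear gene shown for their complex except for mt-Nd6 in complex I.

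The nuclear genes that serve mitochondrial DNA and RNA stood below most mitochondrial mRNAs. Of 10 genes of mitochondrial transcription 8 reached 1 TPM in both libraries, with a median of 2.90 and 3.08 TPM in replicates 1 and 2, against 0.29 and 0.35 TPM over all nuclear protein-coding genes. Tfam, which packages mitochondrial DNA and helps start transcription, had 31.9 and 32.6 TPM. Tfb2m, which opens the promoter with the mitochondrial RNA polymerase, had 21.01 and 8.62 TPM. Its counts differed less, at a log2 CPM ratio of −0.34 for replicate 2 over replicate 1. Mterf1b, of the termination factor family, had 0.06 and 1.15 TPM, from 5.71 and 260.22 expected counts. The counts of both genes were not whole numbers. Another listed gene of the termination factor family had 313.29 and 715.78 expected counts in replicates 1 and 2. In each library these make a whole number together with the counts of Mterf1b, so the level of Mterf1b alone is uncertain. Whether the counts of Tfb2m or Mterf1b were divided with other models was not tested. All 24 measured genes of mitochondrial RNA processing and stability reached 1 TPM in both, with medians of 8.53 and 8.42 TPM. Lrpprc and Slirp are partners that stabilise mitochondrial mRNAs, and Lrpprc had 17.5 and 19.2 TPM. Slirp had 20.8 and 22.9 TPM, and Grsf1, of the mitochondrial RNA granules, had 17.8 and 20.2 TPM.

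Genes for the tRNAs and for translation lay in the same range. Of 25 genes of mitochondrial tRNA modification and charging 24 reached 1 TPM in both libraries, with medians of 5.67 and 6.29 TPM. Lars2, the mitochondrial leucyl-tRNA synthetase, had 34.3 and 29.8 TPM, and Trnt1, which adds the terminal bases CCA to tRNAs, had 20.2 and 23.2 TPM. All 15 measured translation factor genes and all 77 mitochondrial ribosomal protein genes reached 1 TPM in both, with medians of 5.24 and 5.98 TPM and of 11.8 and 13.1 TPM. The protein genes of the ribosome thus stood below both of its RNAs, and Mrps21, the highest, had 81.7 and 70.3 TPM. Of the replication and maintenance list all 17 measured genes reached 1 TPM in both, and Ssbp1, the DNA-binding protein that covers single strands during replication, had 26.0 and 28.2 TPM.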

How the data were processed

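Total RNA-seq of 2 libraries of mouse common myeloid progenitors was analysed. For each library the authors deposited quantifications by gene and by transcript, made on mm10 with the GENCODE M4 annotation according to the library readmes. Aligner and quantifier are not given in the sources used here. In the deposited tables, expected counts and posterior mean counts are estimated reads per gene that need not be whole. TPM, posterior mean TPM and FPKM, per the file headers, were corrected for effective length by the authors. Posterior SDs and TPM interval bounds are those of the deposited tables.

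Genes were located with GENCODE M21 (GRCm38, the assembly also called mm10), which matched 42462 of 43346 Ensembl IDs. Model lengths of all 37 mitochondrial genes were equal to those in the tables, and each gene had 1 transcript with the same count and TPM in the transcript table. Sequences are those of the M21 transcripts. Nuclear copies were annotated transcripts that matched a mitochondrial transcript in blastn 2.17.0 at 90% identity or more over 100 bases or more. A summed level adds the deposited values of a gene and its copies.

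Shares were taken of the expected counts of all Ensembl genes. Ratios between libraries used expected counts rounded to whole numbers, TMM factors of edgeR 4.0.16 in R 4.3.3 and a prior count of 0.5, for genes with a mean count of at least 10. Size factors of DESeq2 1.42.0, total counts and a prior count of 2 were alternatives. The ratio step was tested on simulated data. Other steps used numpy 2.4.6, pandas 2.3.3, matplotlib 3.10.9 and scipy 1.17.1 under Python 3.11.15.

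Genes open to naming were all mitochondrial genes, in each nuclear list the top 5 and bottom 3 by mean TPM, the 10 copies of highest count, cell type markers and the highest nuclear protein-coding gene. Genes and lists were chosen with earlier results of these data known. The nuclear list symbols Mrpp3, Fastkd4, Mpv17, Mtrfr and Pet112 were not analysed here. Intervals cover counting error only, because without molecular identifiers several reads can stem from 1 molecule.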

Additional observations from a re-analysis of the deposited data

How the results depend on the processing

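Leaving out 1 of 2 libraries gives the value of the other, which lies within 1 SD of their mean by construction and left the count of 15 genes at 1 TPM or more as it was. The mRNA share of expected counts was 1.83% as reported, 2.21% among protein-coding genes and 2.47% with nuclear copies added. The mRNA share of TPM was 1.24% as reported, 1.33% by posterior mean TPM, 1.86% with copies added and 5.63% among protein-coding genes. Nuclear protein-coding genes held 20.1% and 21.5% of TPM in replicates 1 and 2, so that most TPM lay outside this set. Rn7sk, a short nuclear RNA at 205892 and 250934 TPM in replicates 1 and 2, was a part of what was left out. FPKM is proportional to TPM within a library and gave the same share by construction. The mean log2 ratio of complex IV over complex I mRNAs was −0.08 as reported, with 0.49 without replicate 1 and −0.66 without replicate 2. It was 1.04 by posterior mean TPM, 1.76 by the mean over subunits, 1.82 with copies summed and 2.07 with copies summed per annotated length. The log2 ratio of mt-Nd6 over the heavy-strand median was −3.21 as reported, −3.48 per annotated length, −3.72 by posterior mean TPM and −4.88 with copies summed. The number of genes past 2-fold between libraries was 4 as reported and under each scaling, prior count and count minimum tried, and 1 with copies summed. Of the mean TPM of the 15 measured genes 3 moved by more than 1 SD with posterior mean TPM and 5 with copies summed. Summing with copies was chosen after seeing the data, and the cause of these changes was not tested. No paired analysis was possible because there was 1 group.

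Depth limits no level of the 15 measured genes, since the lowest had 752 counts (mt-Nd6, replicate 1). The limits lie in the division of counts with identical models, in short models with small effective lengths and in an SD over 2 libraries that share a donor label.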
